A study of Monodelphis domestica with 8 samples.

Results

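The region described is the high-coordinate end of chromosome 3, called distal in the figures, of the gray short-tailed opossum (Monodelphis domestica, a laboratory marsupial), from 500 Mb to the end of the last peak at position 527903353, a stretch of 27.9 Mb. Its members are all peaks of 4 histone modifications that start at or beyond that boundary, 767 of the 54517 peaks in the series: 438 for H3K4me3, 113 for H3K9Ac, 129 for H3K27me3 and 87 for H3K9me3. The boundary was selected on the peak lists themselves, with the densities along the chromosome already known. Density inside it is therefore given as a description with no test, and so is everything else, because each mark has a single list of peaks and no replicate values.

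The lists come from chromatin immunoprecipitation and sequencing (ChIP-seq) of brain from female fetuses at embryonic day 13. There were 8 libraries, 2 for each mark. In each mark, 1 library came from the mating of an LL2 mother with an LL2 father and the other from an LL1 mother with an LL2 father, and each pool held 2 sisters. Micrococcal nuclease was used to cut the chromatin, and each pool was shared out evenly among the antibodies. A mark has a single peak list, named by both of its libraries, so a difference between the crosses cannot be examined. The lists carry no gene names and no read counts, so the tissue could not be checked against marker genes and the depth behind a peak is unknown. Intervals below are exact 95% intervals that cover the counting of peaks only, and neighbouring peaks are not independent of one another.

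H3K4me3, trimethylation of lysine 4 of histone H3, marks the promoters of active and poised genes, and H3K9Ac, acetylation of lysine 9, accompanies it where transcription is under way. H3K27me3 is laid down by Polycomb repressive complex 2 over silent developmental genes and can share promoters with H3K4me3. H3K9me3 is the mark of constitutive heterochromatin and is bound by HP1 proteins. It is found over repeats and, in mammals, also over clusters of zinc finger genes.

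H3K9me3, the heterochromatin mark, had 87 peaks in the region, which were 48.9% of its peaks on chromosome 3 and 12.4% of its peaks on all autosomes. The region makes up 5.29% of the peak-bearing span of chromosome 3 and 0.816% of that of the autosomes. The density was 3.12 H3K9me3 peaks per Mb against 0.182 in the rest of chromosome 3, a ratio of 17.1 (interval 12.6 to 23.2). Each of the 8 autosomes has a low-coordinate and a high-coordinate end, and the other 15 ends of the same length held between 3 and 20 H3K9me3 peaks, with a median of 6. The high-coordinate end of chromosome 1, with 20 peaks, was the next highest.

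H3K4me3 reached 15.7 peaks per Mb against 5.40 in the rest of the chromosome, a ratio of 2.90 (2.62 to 3.21). That was the highest of the 16 ends, followed by the high-coordinate ends of chromosome 4, with 13.9 per Mb, and chromosome 2, with 13.7. H3K27me3 had 4.62 peaks per Mb against 1.81, a ratio of 2.56 (2.11 to 3.08), and H3K9Ac had 4.05 against 2.88, a ratio of 1.40 (1.15 to 1.701). Among the 16 ends the region had rank 6 for H3K27me3 and rank 5 for H3K9Ac, so these marks lay inside the range of the other ends. In 118 windows of this length along the autosomes the region ranked 1 for H3K9me3, 2 for H3K4me3, 10 for H3K27me3 and 35 for H3K9Ac.

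**Figure D1:**
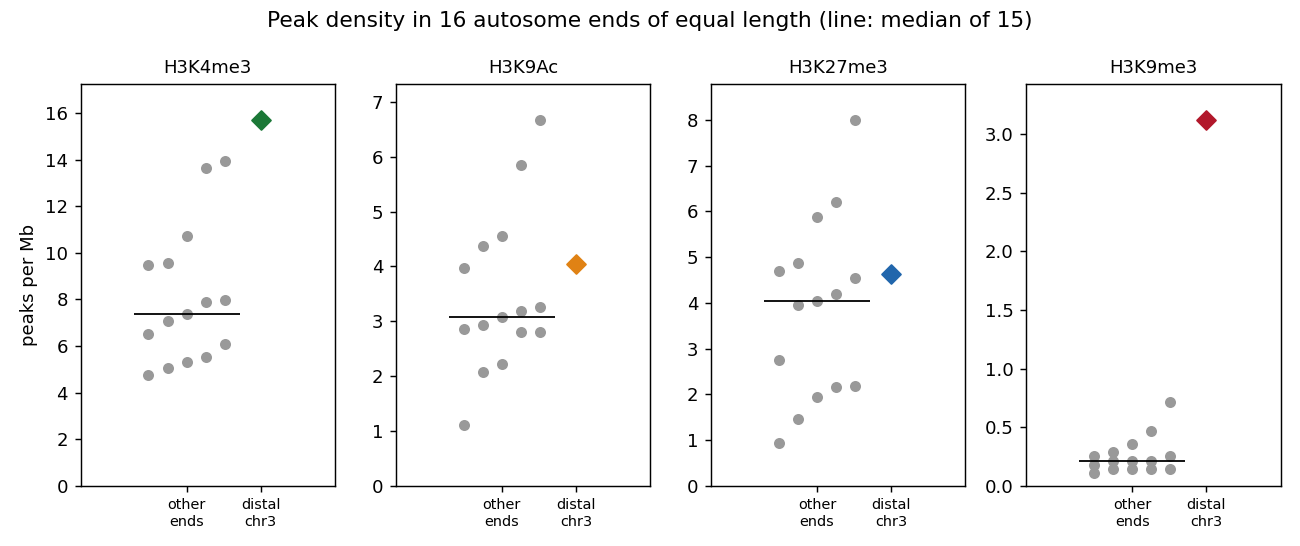
Peaks per Mb of each mark in the 16 autosome ends of equal length, with the distal end of chromosome 3 as a coloured diamond, the other ends as grey points spread sideways for legibility, and their median as a line. It stands above the other 15 ends for H3K9me3 (3.12 against at most 0.717) and H3K4me3 (15.7 against at most 13.9), and among them for H3K9Ac and H3K27me3.

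High peak density on chromosome 3 was not limited to its end. The stretch from 430 to 460 Mb held 19.2 H3K4me3, 7.83 H3K9Ac and 7.73 H3K27me3 peaks per Mb, each more than the end, but only 9 H3K9me3 peaks, or 0.3 per Mb. That stretch was chosen for comparison after its values were seen. Relative to it, the densities at the end were 0.818 for H3K4me3, 0.517 for H3K9Ac and 0.598 for H3K27me3, while that of H3K9me3 was 10.4 times higher. This 1 stretch, dense in the other marks, thus had a much lower H3K9me3 density than the end. Its 0.3 per Mb was still 1.65 times the 0.182 of chromosome 3 outside the end.

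**Figure D2:**
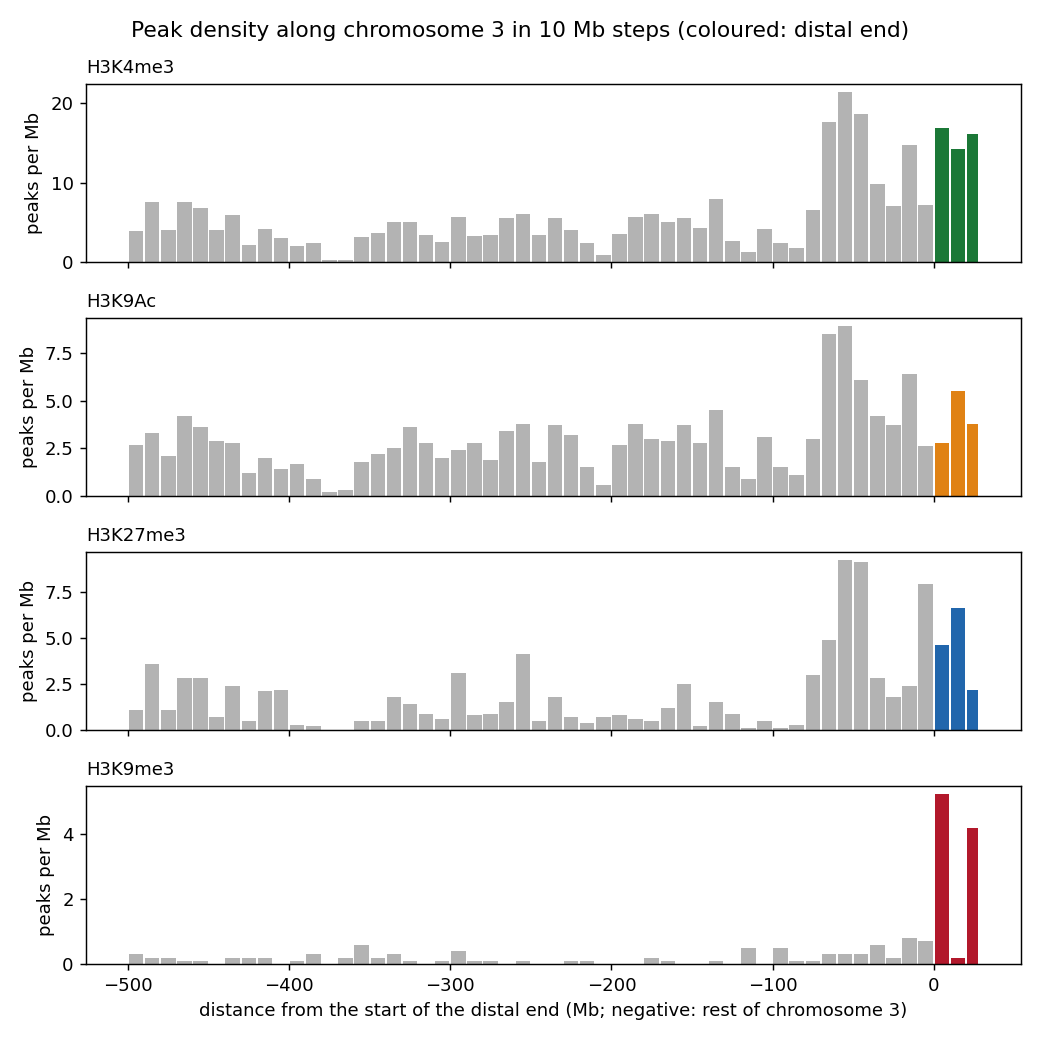
Peaks per Mb of each mark in consecutive 10 Mb steps along chromosome 3, placed by distance in Mb from the boundary, with the distal end coloured. H3K4me3, H3K9Ac and H3K27me3 are dense between 430 and 460 Mb as well, whereas H3K9me3 reaches 5.2 per Mb in the step that starts at 500 Mb and no more than 0.8 in any step before it.

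The peaks on either side of the boundary were alike in score for H3K9Ac and H3K27me3, and differed for the other marks. The last H3K4me3 peak outside it, chr3:499967854-499969252, scored 87.5 and the first inside, chr3:500009485-500010659, scored 188 (the score is the authors' own value per peak, and is compared only within a list). For H3K9me3 the last peak outside, chr3:499940790-499942464, scored 93.9 and the first inside, chr3:500009085-500009798, scored 62.5. The nearest H3K27me3 peaks were 229 kb outside (score 53.5) and 20.1 kb inside (53.6). H3K9Ac was sparser, with its nearest peaks 602 kb outside (score 53.4) and 267 kb inside (52.1). The last 1 Mb before the boundary held 5 H3K9me3 peaks and 16 H3K4me3 peaks, of the 7 and 72 in the last 10 Mb, and the first 1 Mb inside held 9 and 29.

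Within the region H3K9me3 lay in 2 blocks at its edges. The first 5 Mb, from 500 to 505 Mb, held 50 peaks, with 9, 20, 7, 10 and 4 in consecutive 1 Mb bins. The next 16 Mb held 4 peaks. The last 6.90 Mb, from 521 Mb on, held 33, with 9, 3, 5, 0, 4, 12 and 0 in consecutive bins. The division into these segments was made after the counts were seen. The middle segment had 0.25 H3K9me3 peaks per Mb, against 0.182 in the rest of the chromosome, and the outer segments had 10 and 4.78.

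Of the 28 bins of 1 Mb in the region, 10 held 3 or more H3K9me3 peaks, against 1.11% of the 3425 autosomal bins. The bins at 501, 526 and 503 Mb, with 20, 12 and 10 peaks, ranked 2, 3 and 6 among all autosomal bins, and the highest elsewhere, at 333 Mb of chromosome 1, held 31. Bins with 15 or more H3K4me3 peaks numbered 15 of 28, against 10.4% of autosomal bins. Bins with 8 or more H3K27me3 peaks were 6 of 28, against 7.5%, and bins with 8 or more H3K9Ac peaks were 3 of 28, against 12.7%. The region was picked for density, so the H3K9me3 and H3K4me3 counts describe that choice.

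**Figure D3:**
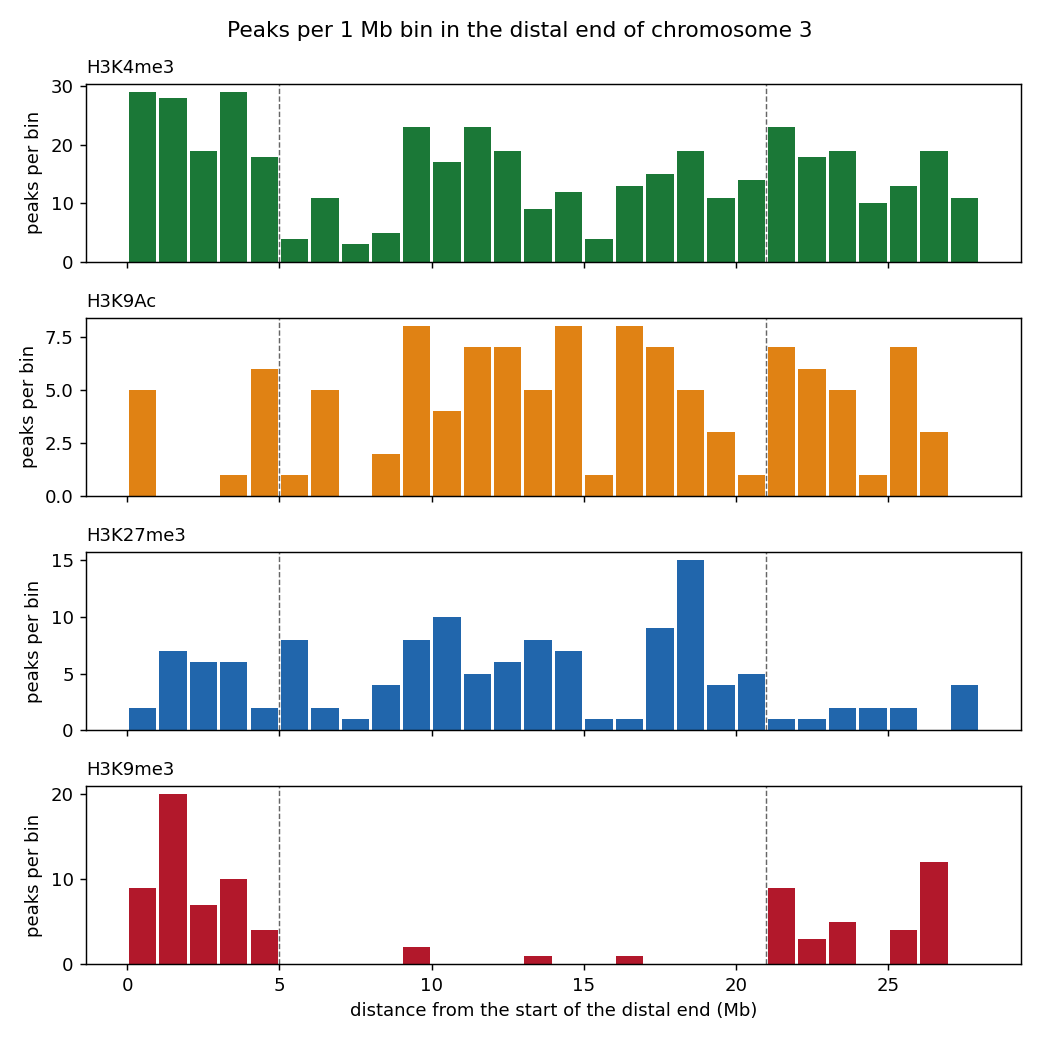
Number of peaks of each mark in 1 Mb bins, by distance in Mb from the boundary, with dashed lines between the segments. H3K9me3 peaks lie in the first 5 bins and the last 7 with 4 peaks between, while H3K4me3 has between 3 and 29 peaks in every bin.

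The other marks followed a different order along the region. H3K4me3 was densest in the first 5 Mb, at 24.6 peaks per Mb, and had 12.6 and 16.4 in the middle and last segments. H3K9Ac was lowest in the first segment, at 2.40 per Mb against 4.5 and 4.201, and the bins at 501 and 502 Mb held 28 and 19 H3K4me3 peaks and no H3K9Ac peak. H3K27me3 had 4.60 and 5.88 per Mb in the first and middle segments and 1.74 in the last, and was most frequent in the bin at 518 Mb, with 15 peaks. The emptiest bins lay in the middle segment, where the bin at 507 Mb held 4 peaks of all marks and the bin at 515 Mb held 6. The longest stretch without any peak, 820 kb, was chr3:514658368-515478201. Gaps over 500 kb numbered 4 in the 27.9 Mb of the region and 217 in the 500 Mb of the rest of the chromosome.

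H3K4me3 peaks of the region touched H3K9Ac and H3K27me3 less often than those in the rest of chromosome 3, and H3K9me3 more often. H3K9Ac touched 97 of 438 (22.1%, interval 18.3% to 26.3%), against 42.2% in the rest of chromosome 3, 34.2% between 430 and 460 Mb and 33.5% over the other 15 ends, where a touch means at least 1 shared base. In pooled tissue, marks that touch may come from different cells, and a mark in few cells cannot be told apart from a weak mark in many. H3K27me3 touched 24 of 438 (5.48%, 3.54% to 8.04%), against 16.6%, 15.5% and 16.98%. For H3K27me3 all 15 other ends had a higher share, the lowest being 10.5%. For H3K9Ac 13 of 15 did. From the other side, 101 of 113 H3K9Ac peaks lay on H3K4me3 peaks (89.4%, 82.2% to 94.4%), and the 90.4% of the rest of the chromosome fell inside that interval. The region thus had H3K4me3 peaks in excess of H3K9Ac peaks, 3.88 to 1, against 1.87 to 1 in the rest of chromosome 3. Such an excess was not particular to the region. The high-coordinate end of chromosome 1 had 141 H3K4me3 and 31 H3K9Ac peaks, and that of chromosome 2 had 381 and 111. The low-coordinate end of chromosome 4 had 264 and 186, and the other 15 ends pooled had 3375 and 1444. H3K9me3 touched 10 of the 438 H3K4me3 peaks (2.28%), against 18 of 2702 (0.666%) in the rest of chromosome 3. By segment, it touched 8 of 123 in the first 5 Mb, 2 of 202 in the middle and 0 of 113 in the last. The 0 allows up to 3.21% by the exact interval. H3K9me3 peaks were 17.1 times denser in the region, which was picked for density, so this contrast depends on that choice.

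Sorted by what they touched, 318 of the 438 H3K4me3 peaks (72.6%, 68.2% to 76.7%) met neither H3K9Ac nor H3K27me3, 96 met H3K9Ac only, 23 met H3K27me3 only and 1 met both. The rest of the chromosome had 44.4% with neither. Across the other 15 ends the share ranged from 29.9% to 69.0%, with the high-coordinate end of chromosome 2 nearest. Density of the peaks with neither mark was 11.4 per Mb, above the 9.43 of the next end. Density of the peaks with H3K9Ac or H3K27me3 was 4.30 per Mb, rank 4 of 16 and near the median of 3.94. H3K9me3 was not used in this sorting, and 5 of the 318 peaks with neither mark touched it. Neither means that no listed peak was touched, and weaker signal is not seen. The lowest scores listed are 50.01 for H3K9Ac and 50 for H3K27me3. In the region 25% of the peaks scored below 57.04 and 57.56, against 61.2 and 66.5 in the rest of the chromosome. The number of H3K4me3 peaks with H3K9Ac or H3K27me3 was thus near that of a typical end, and the excess over the other ends was in peaks with neither.

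**Figure D4:**
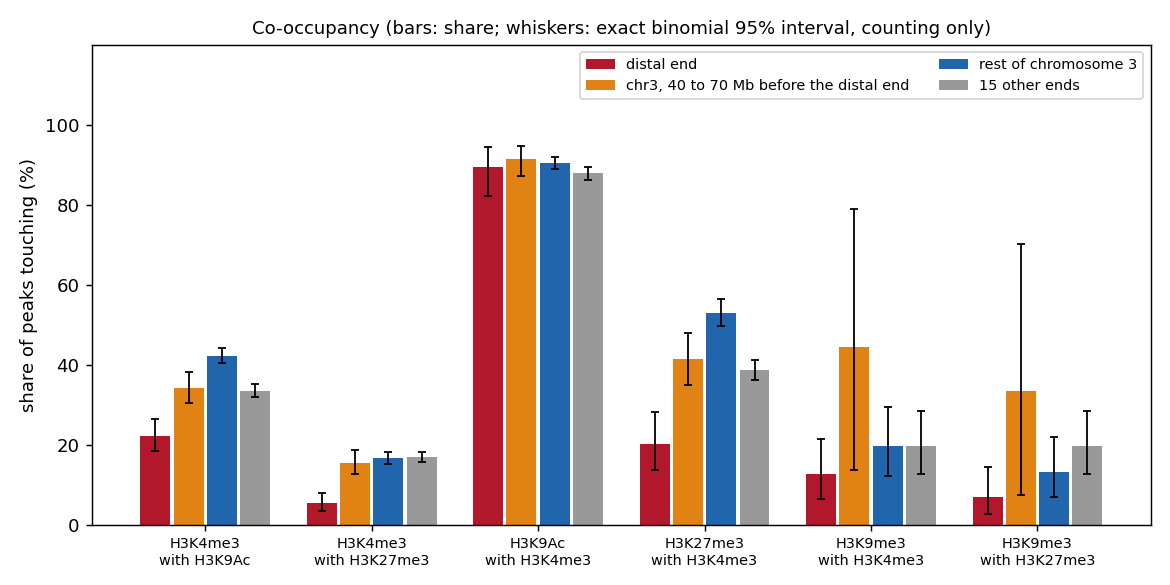
Share of the peaks of one mark that touch a peak of another, in the end of chromosome 3, in chromosome 3 from 430 to 460 Mb, in all of chromosome 3 outside the end, and in the 15 other ends pooled; whiskers are exact binomial 95% intervals. H3K4me3 with H3K9Ac (22.1%), H3K4me3 with H3K27me3 (5.48%) and H3K27me3 with H3K4me3 (20.2%) are lower in the end than in each comparison, and H3K9Ac with H3K4me3 (89.4%) is not.

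The H3K4me3 peaks with neither mark were not the weakest of their list. Their median score was 254 (224 to 289), against 147 (133 to 165) for the same class in the rest of the chromosome, and their median width was 1755 bp against 1503 bp. By segment, from first to last, the median scores were 243, 193 and 345. In the middle segment the score interval, 147 to 253, overlapped that of the rest. So did its width interval, 1494 to 1801 bp against 1458 to 1550 bp. Peaks with H3K9Ac only had a lower median score than elsewhere, 529 (474 to 611) against 864 (815 to 902), and were narrower, with a median of 2236 bp against 2828 bp. Since high-scoring H3K4me3 peaks touch H3K9Ac more often, the list was divided into 5 classes of equal size by score. From the lowest class to the highest, 3.08%, 10%, 17.2%, 43.0% and 66.7% of the region's peaks touched H3K9Ac, against 7.25%, 16.05%, 35.2%, 58.3% and 83.2% in the rest of the chromosome. The share was lower in the region in each of the 5 classes, but the lowest rested on 2 of 65 peaks and the highest on 14 of 21. Weighting the rest of the chromosome to the region's score classes changed the difference, region minus rest, from -20.04 to -12.5 percentage points.

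**Figure D5:**
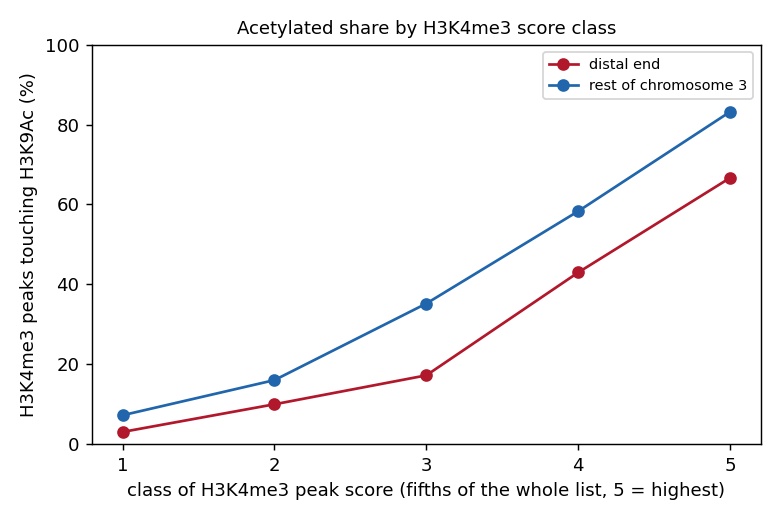
Share of H3K4me3 peaks that touch H3K9Ac in each of 5 classes of H3K4me3 score, class 5 being the highest, for the end of chromosome 3 and the rest of the chromosome. The end lies below the rest in every class, by the widest margin in class 3 (17.2% against 35.2%). No intervals are drawn, and class 5 holds only 21 peaks of the end.

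By segment, H3K9Ac touched 8.94% of H3K4me3 peaks in the first 5 Mb (11 of 123, interval 4.55% to 15.4%), 28.2% in the middle (57 of 202) and 25.7% in the last (29 of 113). The 10 Mb before the boundary had 25% (18 of 72). The first segment, which also held most H3K9me3 peaks, had the lowest share and 10.25 H3K4me3 peaks for each H3K9Ac peak. The middle segment, with few H3K9me3 peaks, had an interval of 22.1% to 34.96%. That interval lay below the 42.2% of the rest of the chromosome. It included the 34.2% between 430 and 460 Mb and the 33.5% over the other 15 ends. Whether H3K9me3 is related to the share touching H3K9Ac was not tested.

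H3K27me3 peaks were mostly apart from H3K4me3. Only 26 of 129 (20.2%, 13.6% to 28.1%) touched an H3K4me3 peak, against 53.0% in the rest of chromosome 3, 41.4% between 430 and 460 Mb and 38.7% over the other ends, all 15 of which were higher. The median distance from an H3K27me3 peak to the nearest H3K4me3 peak was 11.7 kb, whereas in the rest of the chromosome more than 50% of H3K27me3 peaks touched one. The strongest H3K27me3 peak, chr3:505066138-505072497, scored 1672, was 6360 bp wide and met an H3K4me3 peak. With a neighbour at chr3:505072543-505077089 that scored 771, it formed most of a run of 3 peaks over 13.4 kb. The next strongest, chr3:518009642-518013452 (score 949), and the widest, chr3:503303296-503310636 (7341 bp, score 868), met no other mark. The longest H3K27me3 run, chr3:520314003-520329741, held 5 peaks over 15.7 kb and touched no peak of another mark. None of the region's 86 H3K27me3 runs and single peaks exceeded 20 kb. In the rest of the chromosome 30 of 526 did, and the longest spanned 101 kb.

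H3K9me3 peaks lay close to H3K4me3 peaks but seldom on them. The median distance to the nearest H3K4me3 peak was 12.5 kb, and 71 of 87 (81.6%) were within 20 kb, against a median of 57.3 kb and 35.2% in the rest of the chromosome, where H3K4me3 peaks are also sparser. Only 11 of 87 (12.6%, 6.48% to 21.5%) touched one, against 19.8% (18 of 91), a difference inside the counting intervals. None of the 87 touched H3K9Ac, which allows a share of up to 3.45% if a count of 0 is taken to allow 3, and up to 4.15% by the exact interval. Elsewhere on the chromosome 7 of 91 did. In the last segment none of 33 touched H3K4me3 or H3K27me3, which allows up to 9.09% and 10.6% by the same limits. The nearest H3K9Ac peak was a median of 485 kb from an H3K9me3 peak in the first segment and 27.4 kb in the last, so the 2 blocks differed in their surroundings.

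The H3K9me3 peaks were single narrow peaks in most cases. Their median width was 1033 bp (946 to 1179) against 875 bp (808 to 972) in the rest of the chromosome. Their median score was 65.0 (60.3 to 70.7) against 57.6 (54.95 to 61.5). In the other 15 ends, with 3 to 20 peaks each, median widths ranged from 759 to 1353 bp and median scores from 52.7 to 91.6. The region lay inside both ranges. In the top 10% of the H3K9me3 list by score were 10 of the 87 (11.5%), against 9.91% of the list. The rest of chromosome 3 had 3.30% and the other ends 12.1% pooled. The strongest, chr3:509449369-509450364, scored 331 and ranked 22 of 979. It lay in the sparse middle segment and met both an H3K4me3 peak and an H3K27me3 peak. The next strongest, chr3:501665290-501667504 (score 212), and the widest, chr3:501657613-501660705 (3093 bp, score 177), belonged to a single run. That run, chr3:501655830-501669676, was the longest, with 6 peaks over 13.8 kb that filled 81.4% of it, and it touched 3 H3K4me3 and 2 H3K27me3 peaks. A run of 3 peaks at chr3:526141763-526148602 touched none. Runs of 3 or more peaks held 12 of the 87, and in the rest of the chromosome H3K9me3 formed no such run. A run needs peaks less than 5 kb apart, so this contrast depends on the density for which the region was picked. H3K9me3 density was 3.12 peaks per Mb in the region and 0.182 in the rest. The widest single H3K9me3 peak in the rest, at 10342 bp, was wider than any in the region.

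Places with 3 marks were few in the region and in the rest of chromosome 3. H3K4me3 peaks that touched 2 other marks were 6 of 438 (1.37%), against 98 of 2702 (3.63%) in the rest. For H3K9me3 they were 5 of 87 (5.75%), against 12 of 91 (13.2%). In the rest, 1 of 2702 H3K4me3 peaks touched all of the other 3 marks. No peak of any mark in the region did, which does not set it apart at so low a share. H3K4me3, H3K27me3 and H3K9me3 met at 4 H3K4me3 peaks: chr3:501660936-501664425 and chr3:501665706-501667687, both in the long H3K9me3 run, chr3:504393555-504395393, and chr3:509449264-509449884. Their H3K4me3 scores were low, between 51.2 and 84.3, near the lowest H3K4me3 score in the list, 50.01. H3K4me3, H3K9Ac and H3K9me3 peaks met at chr3:500804388-500807061 (H3K4me3 score 733), where the H3K9Ac and H3K9me3 peaks did not touch each other. H3K4me3, H3K9Ac and H3K27me3 met at chr3:506597338-506599525 (score 421).

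The strongest H3K4me3 and H3K9Ac peaks lay in the middle and last segments, outside the first H3K9me3 block. The last segment is itself the second such block, and the first segment held only 12 of the 113 H3K9Ac peaks. The highest H3K4me3 score, 2375, was at chr3:516426316-516433033, a peak of 6718 bp that carried 2 H3K9Ac peaks and ranked 352 of 23987. It was part of the longest H3K4me3 run, chr3:516419688-516441340, with 7 H3K4me3 and 7 H3K9Ac peaks over 21.7 kb. The highest H3K9Ac score, 395, was at chr3:509649243-509651404, on the H3K4me3 peak chr3:509648844-509651367 (score 1258). Another pair was chr3:523750455-523755389 for H3K4me3 (score 1209) and chr3:523752922-523755104 for H3K9Ac (score 278). An H3K9me3 peak, chr3:523745728-523747443, lay 3.01 kb from that H3K4me3 peak. High scores did not always come with acetylation, since the third-ranked H3K4me3 peak, chr3:517304242-517307520 (score 1371), and the sixth, chr3:517034932-517040923 (score 1190), met no other mark. The widest H3K4me3 peak, chr3:504561011-504569896, spanned 8886 bp, scored only 52.15 and met no other mark.

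High-scoring peaks of H3K4me3 and H3K9Ac were fewer than in their lists, as they also were in most of the other ends. In the top 10% of the H3K4me3 list were 3 of the 438 members (0.685%), against 10% of the list and 11.7% of the peaks in the rest of chromosome 3. The other 15 ends had 5.81% pooled and between 1.05%, at the high-coordinate end of chromosome 2, and 14.4%. For H3K9Ac the count was 3 of 113 (2.65%), against 9.99% of the list, 8.88% of the rest of the chromosome and 6.30% over the other ends, 3 of which were lower. For H3K27me3 it was 11 of 129 (8.53%), against 10% of the list, 17.1% of the rest of the chromosome and 14.3% over the other ends, 3 of which were lower. Median scores were also lower, at 290.0 (259 to 324) against 355 (329 to 393) for H3K4me3, 66.5 (61.1 to 77.9) against 84.9 (80.7 to 89) for H3K9Ac and 97.0 (76.9 to 125) against 120 (111 to 130) for H3K27me3, the last with overlapping intervals. The medians of the other 15 ends ranged from 168 to 398 for H3K4me3, from 64.1 to 98.1 for H3K9Ac and from 67.85 to 137 for H3K27me3, so the region lay inside the range of ends for each of them. Median widths showed the same order, with 1860.5 bp against 2052.5 bp for H3K4me3, 850 bp against 1011.5 bp for H3K9Ac and 1356 bp against 1459 bp for H3K27me3.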

How the data were processed

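Per the labels, each of the 4 marks has 2 libraries that name 1 deposited peak list. The submitters' processing notes list MACS 1.0.1, CASAVA 1.7 and Bowtie 1.1.2. Not given in the sources used here are the genome build, control, peak threshold and way of combining libraries. The deposited lists hold position and score, and how the authors computed the score is not stated. Per-sample value columns left unmapped numbered 0.

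Peaks starting at or beyond 500 Mb of chromosome 3 were compared with the rest of that chromosome and with 15 equal ends, counted from the first or last peak of each autosome. Touching needed 1 shared base, and runs joined peaks less than 5 kb apart. Intervals are exact binomial (Clopper-Pearson), or order-statistic for medians, at 95%. No test was run. Starts count from 1. The gene table at hand is of a different assembly and gave no positions.

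The members and lists were chosen with earlier results of these data known. The rule for named regions took the 5 highest-scoring and 5 widest peaks and 5 longest runs per mark, the densest and emptiest bins, the 3 longest gaps, and the peaks beside the boundary; those that carry a comparison are printed. Peaks with 3 marks, the segments, the bin minimums and the stretch from 430 to 460 Mb were chosen after values were seen. Alternatives changed the boundary, reference, score cut, overlap and weighting. Scripts were tested on simulated data. Versions were scipy 1.17.1, pandas 2.3.3, numpy 2.4.6, matplotlib 3.10.9 and Python 3.11.15.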

Additional observations from a re-analysis of the deposited data

How the results depend on the processing

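Of the alternative values, 99 stayed within the counting interval of the main value (or kept its rank), 37 moved outside it and 4 changed direction where that interval had excluded no difference; the cause was not tested. Another 2, counted among the 99 and the 37, changed sign where it had not: the share of H3K9Ac peaks touching H3K4me3, region minus rest, went from -1.05 to 2.24 percentage points with score classes weighted, and that of H3K9me3 peaks touching H3K4me3 from -7.14 to 30.2 for 505 to 521 Mb alone. The ratio of H3K4me3 density to the rest of chromosome 3 was 2.55 in the top-scoring 50% of peaks, 2.32 by bases under peaks, 2.51 with the boundary at 490 Mb, 2.46 against all other autosomal sequence, 2.55 without 500 to 505 Mb and 2.34 for 505 to 521 Mb alone. For H3K9Ac it was 0.860 in the top-scoring 50%, below 1. For H3K27me3 it was 1.78 by bases, 3.26 from 490 Mb and 3.25 for 505 to 521 Mb alone. For H3K9me3 it was 24.7 in the top-scoring 50%, 6.97 from 510 Mb, 8.88 without 500 to 505 Mb and 1.37 for 505 to 521 Mb alone. Against 430 to 460 Mb the ratios were 0.818, 0.517 and 0.598 for H3K4me3, H3K9Ac and H3K27me3, all turned below 1, and 10.4 for H3K9me3. In 118 windows the ranks were 2 for H3K4me3, 35 for H3K9Ac and 10 for H3K27me3. Among ends, the rank in the top-scoring 50% was 6 for H3K9Ac and 8 for H3K27me3, and by bases 9 for H3K27me3.

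For shares in the top-scoring 50%, the list of every mark was cut, so weaker touched peaks were dropped as well. That kept 35 of 113 H3K9Ac peaks in the region and 729 of 1442 in the rest of chromosome 3. The difference in the share of H3K4me3 peaks touching H3K9Ac was then -29.3 percentage points. With the full lists it was -12.5 with score classes weighted, -14.2 from 510 Mb and -14.9 without 500 to 505 Mb. It was -14.0 for 505 to 521 Mb alone and -12.1 against 430 to 460 Mb. For H3K4me3 touching H3K27me3 it was -13.7 weighted and -13.2 from 510 Mb. For H3K27me3 touching H3K4me3 it was -42.7 from 510 Mb and -21.2 against 430 to 460 Mb. For H3K9me3 touching H3K4me3 it was -19.0 in the top-scoring 50%, -16.7 from 510 Mb, -14.4 without 500 to 505 Mb, -31.8 against 430 to 460 Mb, and 30.2 for 505 to 521 Mb alone, which holds 4 such peaks. The ratio of median H3K9me3 width was 1.07 from 510 Mb, and that of median H3K4me3 score 0.718 with 1 median per bin. The settings without 500 to 505 Mb, for 505 to 521 Mb alone and against 430 to 460 Mb were added after seeing the data. Depth is unknown, and no paired analysis was possible because each mark has a single list.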
